A study of Mus musculus with 2 samples.

Results

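Cathepsins are the proteases of the lysosome. The 9 members described here (Ctsa, Ctsb, Ctsc, Ctsd, Ctsh, Ctsk, Ctsl, Ctss and Ctsz) were chosen by gene symbol, and each matched 1 of the 31053 genes in the tables. Their RNA was followed by single-cell sequencing in 2 libraries, each from macrophages grown out of the bone marrow of 129Sv mice. Both cultures were grown in RPMI-1640 with 10% fetal bovine serum and 50 ng/ml M-CSF, the growth factor that turns marrow cells into macrophages. On day 7 the THP culture was given Tamm-Horsfall protein (uromodulin, made by the kidney) at 1 µg/ml, in a truncated form that does not polymerize, and the vehicle culture was given 5% dextrose. Both treatments lasted 18 h, after which cells were detached with TrypLE and dead cells were removed. The labels describe the mice as wild type and give neither their number nor whether marrow was pooled. With 1 library per group no difference below has a replicate check, no test was possible, and treatment cannot be told apart from library or dish.

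Cathepsins are made as inactive precursors, carried to lysosomes largely by mannose 6-phosphate receptors, and activated there by proteolysis. Ctsb, Ctsc, Ctsh, Ctsk, Ctsl, Ctss and Ctsz encode cysteine proteases, Ctsd encodes an aspartic protease and Ctsa a serine carboxypeptidase. In macrophages they degrade engulfed material, and some of them also cut the invariant chain that blocks MHC class II molecules. Cystatins, stefins and some serpins inhibit them.

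Each RNA molecule in these libraries carries a unique molecular identifier (UMI), and a level is given as CPM, the UMIs of a gene per 1e6 UMIs of the cells summed. The THP library kept 12123 cells with 224825484 UMIs and the vehicle library 10978 cells with 207662132 UMIs, and 42 barcodes occurred in both. Cells were assigned to gates by their markers: a cell met a gate with at least 3 of its markers at 2 or more UMIs each. Cells meeting several lists were set aside. They were 13.9% of THP and 21.8% of vehicle cells, with 21.1% and 32.2% of kept UMIs. Cells that met no gate were 18.6% and 12.3%. The macrophage gate held 4665 THP cells (38.5%) and 3144 vehicle cells (28.6%), and they carried 52.5% and 39.0% of all kept UMIs. The other gates compared were monocyte (615 and 816 cells), neutrophil (1278 and 1753), myeloid progenitor (793 and 796) and cells with MHC class II markers but no lineage list (651 and 588). Many cells lay near the limits of the gates: 23.1% of THP cells and 24.6% of vehicle cells that met the macrophage list had exactly 3 of its 8 markers. For the monocyte list these shares were 52.4% and 40.2%, for the neutrophil list 49.7% and 46.8%, and for the progenitor list 22.9% and 23.6%. Cells of the macrophage gate had a median of 5 macrophage markers and a median of 0 markers of each other list. When cells were clustered without the cathepsins, some macrophage clusters were mostly of 1 library: cluster 4 held 4189 THP cells and 96 vehicle cells, cluster 7 held 95 and 2483, and cluster 6 held 1149 and 899.

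RefSeq start sites on GRCm38.p6 were available for 7 of the 9 members, and 5 of these windows are printed because they hold the E-box that lysosomal genes often share, or belong to the neighbouring pair Ctsk and Ctss. Each runs from 250 bases before to 50 bases after a start site, 5′ to 3′ on the gene's strand, and capitals mark CACGTG, the core of the element bound by the lysosomal regulator TFEB and its relatives. The windows are chr2:164833523-164833822 (plus strand) for Ctsa, chr7:142387778-142388077 (minus) for Ctsd, chr13:64370471-64370770 (minus) for Ctsl, chr3:95526536-95526835 (plus) for Ctss and chr3:95498960-95499259 (plus) for Ctsk.
Ctsa: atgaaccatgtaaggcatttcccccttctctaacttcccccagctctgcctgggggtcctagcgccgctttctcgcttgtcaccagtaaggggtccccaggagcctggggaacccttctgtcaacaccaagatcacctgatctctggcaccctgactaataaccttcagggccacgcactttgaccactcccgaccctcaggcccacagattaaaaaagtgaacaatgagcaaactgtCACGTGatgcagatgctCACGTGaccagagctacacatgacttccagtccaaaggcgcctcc
Ctsd: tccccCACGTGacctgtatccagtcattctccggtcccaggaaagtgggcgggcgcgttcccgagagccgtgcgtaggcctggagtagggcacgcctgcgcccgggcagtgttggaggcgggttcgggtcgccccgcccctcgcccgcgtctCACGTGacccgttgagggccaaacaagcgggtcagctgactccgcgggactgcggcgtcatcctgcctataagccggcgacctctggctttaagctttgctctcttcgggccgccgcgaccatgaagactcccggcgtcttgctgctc
Ctsl: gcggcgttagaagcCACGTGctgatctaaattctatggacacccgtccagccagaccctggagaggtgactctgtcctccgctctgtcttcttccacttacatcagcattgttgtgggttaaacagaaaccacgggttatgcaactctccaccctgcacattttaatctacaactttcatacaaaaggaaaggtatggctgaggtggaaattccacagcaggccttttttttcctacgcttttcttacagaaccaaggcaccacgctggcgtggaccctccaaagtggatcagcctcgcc
Ctss: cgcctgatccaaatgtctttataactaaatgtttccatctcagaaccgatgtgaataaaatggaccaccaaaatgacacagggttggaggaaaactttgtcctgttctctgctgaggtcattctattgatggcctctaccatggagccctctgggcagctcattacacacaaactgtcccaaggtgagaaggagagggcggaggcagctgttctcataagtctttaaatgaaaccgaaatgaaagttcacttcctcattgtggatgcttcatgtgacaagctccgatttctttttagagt
Ctsk: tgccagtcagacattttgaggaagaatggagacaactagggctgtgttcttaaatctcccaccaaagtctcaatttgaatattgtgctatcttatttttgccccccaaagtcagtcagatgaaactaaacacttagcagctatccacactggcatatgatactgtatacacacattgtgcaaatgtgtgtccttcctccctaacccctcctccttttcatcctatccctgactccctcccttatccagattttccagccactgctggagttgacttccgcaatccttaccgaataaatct

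CACGTG, searched on both strands, was found in 3 of the 8 windows of these members, of which Ctsa has 2 with the motif in only 1, whereas 7.15% of 32851 mouse promoter windows of the same length hold it. Ctsa had 2 copies, beginning at positions -12 and 5 with 0 as the first transcribed base, Ctsd had 2 at -245 and -98, and Ctsl had 1 at -236. Both Ctsa copies and 1 Ctsd copy lay within TCACGTGA, which is found in 0.974% of windows. GAGGAAGT, a sequence bound by the myeloid factor PU.1, was found once each in the windows of Ctsc and Ctss and in 3.20% of all windows, on either strand. Ctss and Ctsk lie in the same direction on chromosome 3, from 95526786 to 95556403 and from 95499256 to 95509362 in GENCODE M21, with 17423 bases between them. A match describes these letters and does not show binding.

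Together the 9 members made up 1.06% of all UMIs in the THP macrophage gate and 1.05% in the vehicle macrophage gate. Their summed level there was 10589 CPM (exact Poisson 95% interval 10570 to 10607) in THP and 10521 CPM (10499 to 10543) in vehicle. It was lower in the other gates of both libraries, at 4561 and 3959 CPM in MHC class II only cells, 3982 and 3393 in monocytes, 1818 and 1585 in neutrophils, and 1452 and 1223 in progenitors. The intervals here and below cover counting error only. Macrophage-gate cells held 73.2% of THP and 69.1% of vehicle Ctsl UMIs, but only 34.6% and 22.2% of Ctsh UMIs, as the plot of UMI shares shows.

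**Figure D1:**
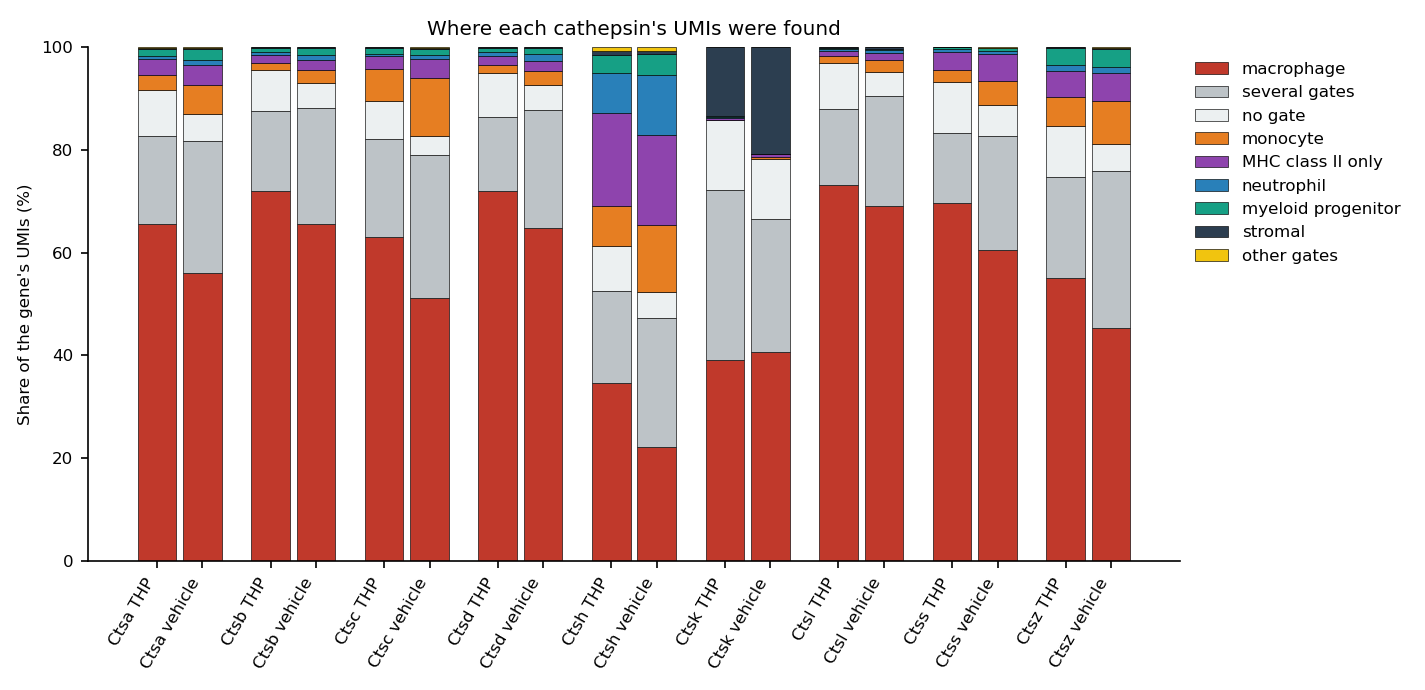
Share of each cathepsin's UMIs (%) found in each marker gate, with 1 stacked bar per gene and library. The macrophage gate holds over 50% of the UMIs of Ctsa, Ctsb, Ctsc, Ctsd, Ctsl and Ctss in both libraries, and less of Ctsh and Ctsk.

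Ctsb, Ctsd and Ctsl, the main endopeptidases of the lysosome, were the cathepsins with most UMIs in macrophages. Ctsl ranked 43rd among all genes by CPM in the THP macrophage gate, Ctsb 54th and Ctsd 57th, and in the vehicle gate they ranked 50th, 48th and 37th. Divided by the length of the longest annotated transcript, the order changed: Ctsd was highest with 1226 CPM per kb in THP and 1340 in vehicle. Ctsl, whose longest transcript is 6.168 kb, was at 476 and 430. UMIs count molecules whatever their length, so this second order does not rank abundance. Which transcript was expressed was not examined.

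Ctsl, an endopeptidase of broad specificity, was at 2936 CPM (2926 to 2946) in THP macrophages and 2652 CPM (2641 to 2663) in vehicle macrophages, a ratio of 1.11 (1.10 to 1.11). It fell off most steeply between gates. Monocytes had 610 and 458 CPM, MHC class II only cells 546 and 447, neutrophils 266 and 179, and progenitors 96.0 and 65.1, so that macrophages stood 30.6-fold above progenitors in THP and 40.8-fold in vehicle. Ctsl was higher in the THP library in each of these 5 gates, with the largest ratios in neutrophils (1.48) and progenitors (1.48). In the small stromal gate it was lower in THP, at 602 and 732 CPM. After thinning each cell to 2000 UMIs, 89.5% of THP and 84.6% of vehicle macrophages had a Ctsl UMI, as did 12.0% and 8.85% of progenitors. The T or NK cell gate, taken as a measure of free RNA, had Ctsl in 0 of 34 THP cells, which allows a share of up to 8.82% by the 3-count limit and 10.3% as the exact binomial upper bound, and in 4.17% of 24 vehicle cells (exact binomial 95% interval 0.105 to 21.1%). Median depths before thinning were 21854 and 23264.5 UMIs in macrophages and 7850 and 9137 in T or NK cells. The share of vehicle progenitors with Ctsl was within that interval and not distinguishable from that of T or NK cells at this depth. The interval of THP progenitors (9.79 to 14.5%) began below the THP bound. Whether T or NK cells make Ctsl themselves was not tested, so this comparison cannot tell free RNA from RNA the cells made. MHC class II markers summed to 3517 and 3124 CPM in T or NK cells, against 692 and 886 over all kept cells.

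Ctsb, which cuts both inside proteins and dipeptides from their ends, was at 2623 CPM (2614 to 2633) in THP macrophages and 2698 CPM (2686 to 2709) in vehicle macrophages. The next gate, MHC class II only cells, had 803 and 712 CPM, and the lowest, progenitors, had 303 and 319. Ctsd was at 2607 CPM (2598 to 2617) in THP macrophages and 2850 CPM (2838 to 2861) in vehicle macrophages. Its other gates lay between 296 CPM in THP progenitors and 864 CPM in THP MHC class II only cells. The THP to vehicle ratios of both genes lay between 0.915 and 1.17 in the 5 gates. In macrophages both were slightly lower in THP, with ratios of 0.972 (0.967 to 0.978) for Ctsb and 0.915 (0.910 to 0.920) for Ctsd, but this direction turned under TMM scaling, which evens out the bulk of the genes between libraries, to log2 differences of 0.19 and 0.10. A comparison of 2 genes within a library does not depend on that scaling: there were 0.888 Ctsd UMIs per Ctsl UMI in THP macrophages and 1.07 in vehicle macrophages. The ratio was also lower in THP in the monocyte (1.08 against 1.33), MHC class II only, neutrophil and progenitor (3.08 against 4.57) gates. The share of vehicle progenitors with Ctsl was, however, not distinguishable from that of T or NK cells. In the small stromal gate the ratio went the other way, at 0.653 in THP and 0.630 in vehicle.

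Ctss, the cysteine protease that completes invariant chain removal in many antigen-presenting cells, was at 723 CPM (718 to 728) in THP macrophages and 845 CPM (839 to 851) in vehicle macrophages. MHC class II only cells followed with 541 and 644 CPM, then monocytes with 280 and 344. Neutrophils (87.4 and 83.0 CPM) and progenitors (38.4 and 49.0) were far lower. Ctss was thus lower in THP in 4 of 5 gates on the CPM scale, with a macrophage ratio of 0.856 (0.847 to 0.865), but TMM scaling brought the macrophage log2 difference from -0.22 to 0.01. MHC class II markers moved with it in the macrophage gate: all 4 were detected, and their summed level there was 296 CPM in THP and 553 in vehicle. In progenitors the sum also went with Ctss (263 and 303 CPM). It went the other way from Ctss in monocytes (453 and 399 CPM), MHC class II only cells (11120 and 10026) and neutrophils (363 and 455). The ratio of Ctss was as large in macrophages with at least 3 of these markers (696 and 823 CPM, ratio 0.845) as in those with none (713 and 846, ratio 0.843).

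**Figure D2:**
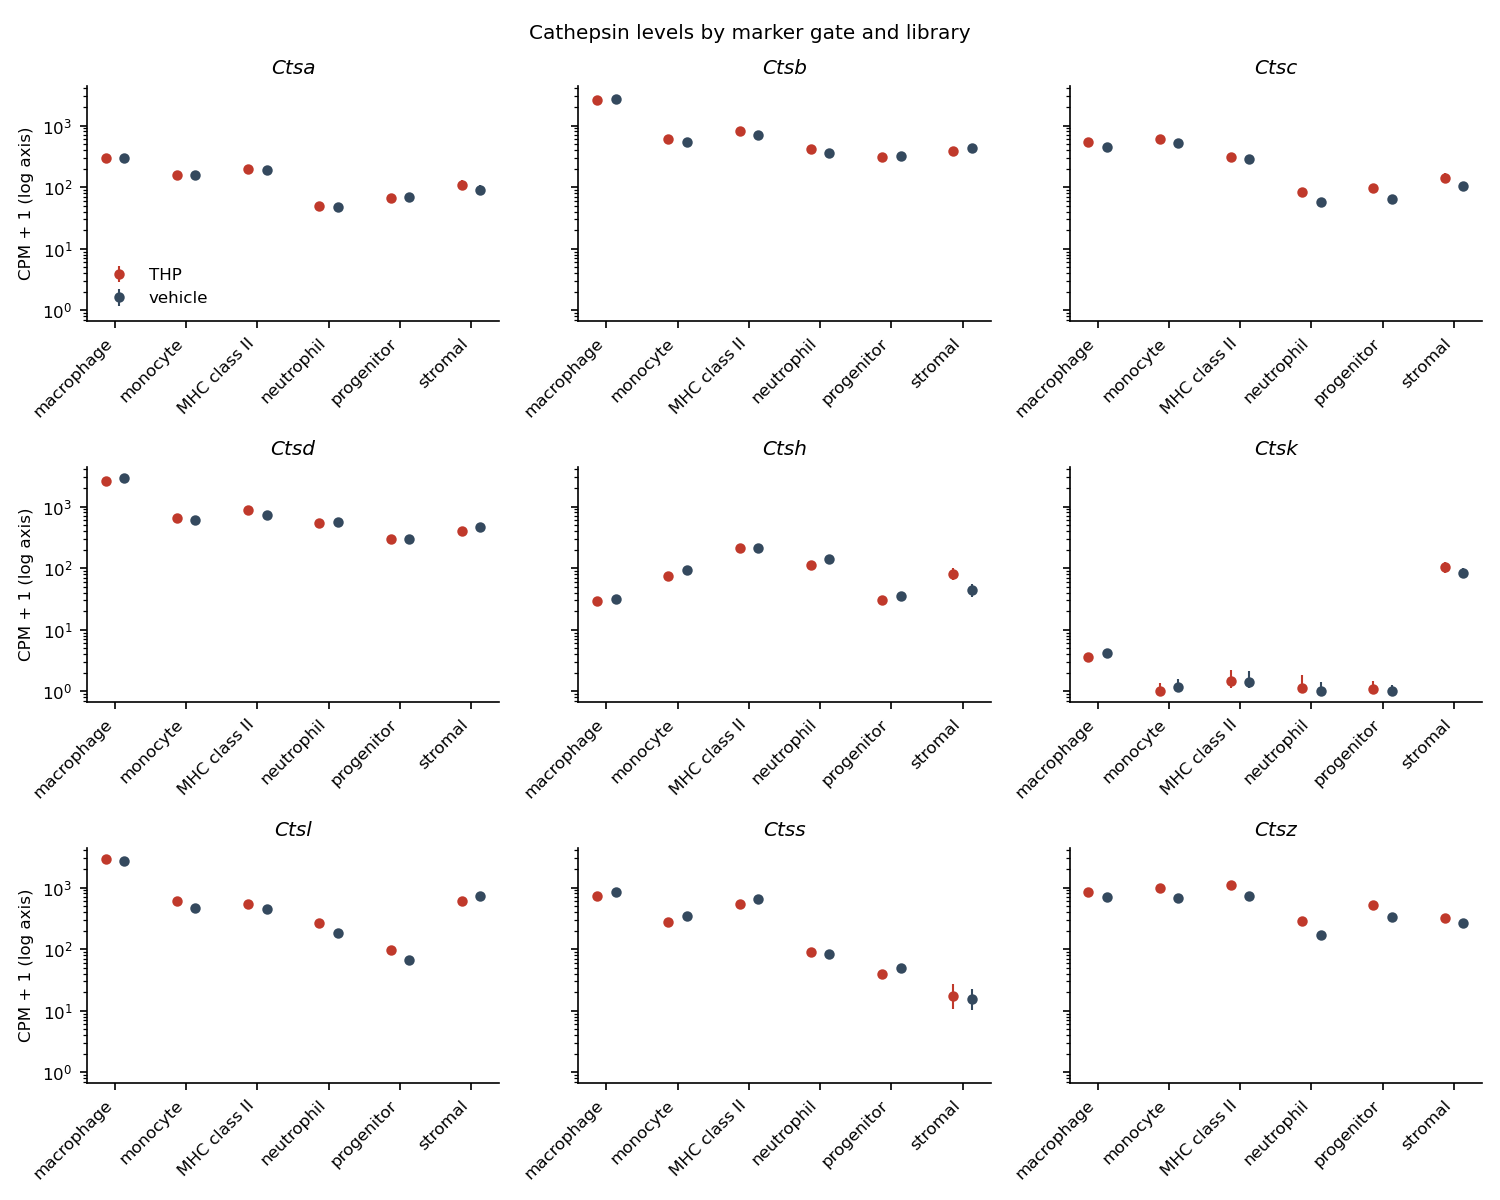
Level of each cathepsin (CPM + 1, log axis) in 6 marker gates, with 1 point per library and exact Poisson 95% intervals as vertical lines, mostly smaller than the points. Ctsa, Ctsb, Ctsd, Ctsl and Ctss peak in macrophages, Ctsh and Ctsz in MHC class II only cells, and Ctsk in the stromal gate.

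The exopeptidases trim proteins from their ends. Ctsc, an aminodipeptidase that activates the serine proteases of myeloid granules, was highest in monocytes, at 611 CPM (596 to 626) in THP and 521 CPM (509 to 532) in vehicle. Macrophages had 542 (538 to 546) and 445 (440 to 449), and their ratio of 1.22 was close to that of monocytes, 1.17. Levels were lower in MHC class II only cells (309 and 282), progenitors (97.4 and 64.0) and neutrophils (83.8 and 56.1). Ctsc was higher in THP in all 5 gates, with the largest ratio in progenitors, 1.52 (1.39 to 1.67). After thinning, however, 11.8% of THP and 10.2% of vehicle progenitors had a Ctsc UMI, against 11.8% and 16.7% of T or NK cells. Shares in progenitors were thus not above those of T or NK cells at this depth. Whether T or NK cells make Ctsc themselves was not tested, so this comparison cannot tell free RNA from RNA the cells made. T or NK cells had 78.7 CPM in THP and 155 in vehicle.

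Ctsz, a carboxypeptidase, varied least between gates, by 3.89-fold in THP and 4.34-fold in vehicle. Its highest level was in MHC class II only cells (1091 and 735 CPM), followed in THP by monocytes (999 and 673 CPM) and macrophages (832 and 697). Macrophages and monocytes had the opposite order in vehicle. Progenitors were at 527 and 327 and neutrophils at 280 and 170. Its ratio lay between 1.19 (1.18 to 1.21) in macrophages and 1.65 (1.55 to 1.77) in neutrophils. After thinning, 57.6% of THP and 41.3% of vehicle progenitors had a Ctsz UMI, against 17.6% and 16.7% of T or NK cells. By level, T or NK cells had 222 CPM in THP and 239 in vehicle.

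Ctsh, an aminopeptidase, was low in macrophages. MHC class II only cells had the most, with 211 CPM (201 to 221) in THP and 209 (200 to 219) in vehicle, neutrophils had 112 and 138, and monocytes 72.4 and 93.5. Progenitors (28.9 and 33.8) and macrophages (28.0 and 30.1) were lowest, and their counting intervals overlapped in both libraries. Within the macrophage gate, cells with MHC class II markers had 49.9 and 61.6 CPM and cells without them 23.0 and 22.5. Ctsa, the carboxypeptidase that also protects neuraminidase and beta-galactosidase in a complex, was at 294 CPM (291 to 297) and 301 CPM (298 to 305) in macrophages, at 196 and 191 in MHC class II only cells, and at 47.9 and 45.8 in neutrophils. Its ratio lay between 0.975 and 1.05 in the 5 gates, the narrowest range of the 8 measured members.

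Ctsk, the collagen-degrading cathepsin of osteoclasts, contributed little to the macrophage total. Macrophages had 304 Ctsk UMIs in THP (2.58 CPM) and 259 in vehicle (3.20 CPM), and the remaining 4 gates had 0 to 4 UMIs per library. The stromal gate, with only 52 and 45 cells, had 105 and 132 UMIs, or 102 CPM (83.8 to 124) and 82.6 CPM (69.1 to 97.9). Few cells carried the gene: a UMI was found in 203 THP and 168 vehicle cells, 5 and 10 cells held at least 50% of the UMIs, and 1 THP cell had 143. Cells with at least 3 osteoclast markers, 173 in THP and 233 in vehicle, held 51.0% and 23.5% of Ctsk UMIs, and cells with at least 3 stromal markers held 15.1% and 26.4%. Macrophages with MHC class II markers had 63 Ctsk UMIs in THP and 12 in vehicle, and those without them had 177 and 187. Ctsk was below the 10 CPM minimum in both libraries and enters no count of differences between the libraries below. Its neighbour Ctss had 17 and 23 UMIs in the stromal gate.

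Osteoclast markers also divided the other cathepsins within the macrophage gate. In the 121 THP and 142 vehicle macrophages with at least 3 such markers, Ctsd was at 4559 and 4826 CPM, against 1981 and 2112 in macrophages with none. Ctss was at 1714 and 1878 against 510 and 579, and Ctsz at 1512 and 1332 against 715 and 543. Ctsc went the other way, at 289 and 194 CPM against 554 and 461. These cells had more UMIs, with medians of 35368 and 36213 against 19957.5 and 21125, and the part of depth in these differences was not tested.

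Over all kept cells, 0 of the 8 members at 10 CPM or more in a library differed by at least 2-fold, where 3.88% of the 8012 genes tested did, and 0 of 8 differed by 1.5-fold, where 19.6% did. TMM scaling raised the median of all genes by 0.29 (log2), and Ctsl (log2 difference 0.77), Ctsc (0.70) and Ctsz (0.68) were then past 1.5-fold, where 12.7% of genes were past it in either direction. In the macrophage gate the counts were 0 of 8 at 2-fold (3.27% of 7864 genes) and 0 of 8 at 1.5-fold (17.8%). At 2-fold the count was also 0 of 8 in monocytes (3.78% of genes), MHC class II only cells (7.28%), neutrophils (8.22%) and progenitors (3.65%). Under RLE scaling, however, Ctsz in neutrophils reached 2-fold (log2 difference 1.00, and 0.99 under TMM scaling). There 2.95% of genes were that much higher under RLE scaling. At 1.5-fold, Ctsz passed in neutrophils, where 3.80% of genes were that much higher in THP. Ctsz and Ctsc passed in progenitors, where 1.38% were, Ctsc in a share of cells not above that of T or NK cells. Under TMM scaling Ctsl also passed in neutrophils and progenitors, and Ctsc in neutrophils, where 8.3% (neutrophils) and 3.81% (progenitors) of genes were that much higher. Ctsz then passed in monocytes (4.43% of genes higher) and MHC class II only cells (6.91%) as well. In macrophages 0 of 8 passed under TMM scaling, where 11.2% of genes did in either direction. The share of vehicle progenitors with Ctsl was not distinguishable from that of T or NK cells. Ctsc in neutrophils was at 83.8 CPM in THP and 56.1 in vehicle, against 78.7 and 155 in T or NK cells. For Ctsz, neutrophils had 280 and 170 CPM, against 222 (170 to 284) and 239 (181 to 310) in T or NK cells. Its level in neutrophils was thus not clearly above that of T or NK cells, and whether these make it themselves was not tested. Ctsl in neutrophils was at 266 and 179 CPM, against 64.4 and 37.8 in T or NK cells. The small B cell gate had 215 CPM (155 to 290) in THP and 60.4 (27.6 to 115) in vehicle. The small mast cell or basophil gate had 70.7 (36.5 to 123) and 151 (84.3 to 248). The THP B cell and vehicle mast cell or basophil intervals covered the neutrophil levels of those libraries. The ratios of this paragraph are on the log2(CPM + 1) scale.

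**Figure D3:**
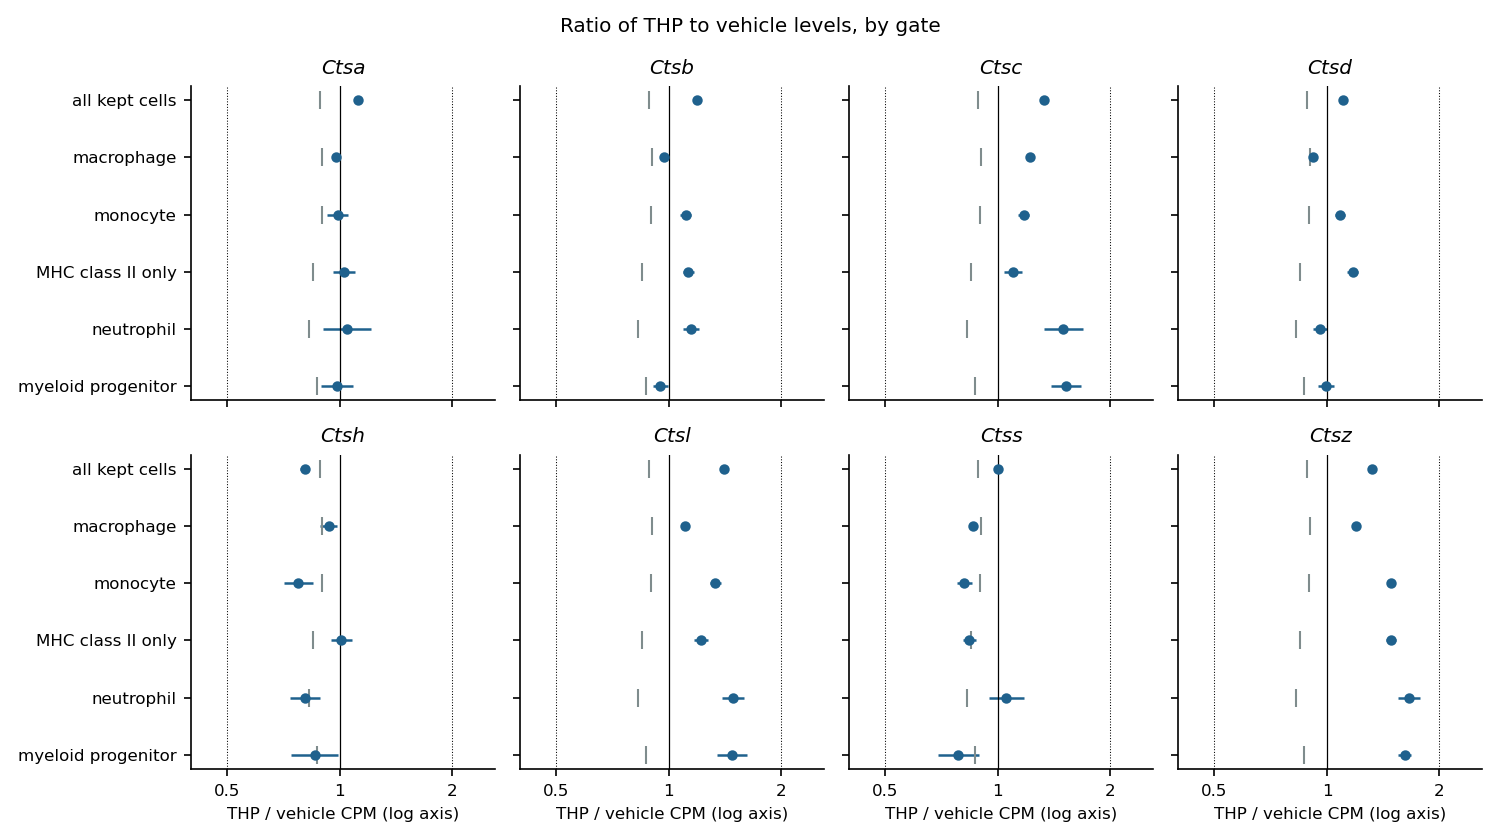
Ratio of THP to vehicle CPM (log axis) for 8 cathepsins over all kept cells and in 5 gates, with intervals for counting error, a solid line at 1 and dotted lines at 0.5 and 2. Grey ticks mark the median of all genes tested; Ctsc, Ctsl and Ctsz lie right of both tick and solid line in all 6 rows on this CPM scale.

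Over all kept cells Ctsl was at 2105 CPM in THP and 1498 in vehicle (ratio 1.40), Ctsc at 452 and 339 (1.33), Ctsz at 792 and 601 (1.32) and Ctsb at 1911 and 1606 (1.19). Ctsd (1900 and 1718), Ctsa (235 and 210) and Ctss (545 and 545) differed less, and Ctsh was lower in THP (42.5 and 52.8, ratio 0.805). The median log2 difference of the 8 members was 0.21, and that of all genes was -0.18. The share of cells in the macrophage gate moved with this comparison. With both libraries given the same mix of gates, the log2 difference fell to 0.04 for Ctsb, 0.02 for Ctsa and -0.06 for Ctsd, while Ctsz kept 0.35, Ctsc 0.34 and Ctsl 0.26. Within the macrophage gate the median over the members was -0.04, with 3 higher and 5 lower, and that of all genes was -0.15.

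On the CPM scale, Ctsc, Ctsl and Ctsz were the members higher in THP in each of the 5 gates, and they were also higher in macrophages both with and without MHC class II markers. Under TMM and RLE scaling Ctsa, Ctsb and Ctsd were higher in all 5 gates too. In these 2 subsets the ratios were 1.30 and 1.17 for Ctsc, 1.14 and 1.06 for Ctsl, and 1.19 and 1.21 for Ctsz. Transcript length also moved with the difference between the libraries: over the genes tested in the macrophage gate, Spearman's rho between length and log2 difference was -0.57, a description across genes. Corrected for length, the macrophage log2 difference of Ctsz, whose longest transcript is 1.441 kb, went from 0.25 to 0.01, that of Ctsc was 0.30 and that of Ctsl rose from 0.15 to 0.43.

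Single macrophages differed from one another far more than the libraries did, and counting noise is part of that spread. The 90th percentile of Ctsl per cell was 12.8 times the 10th in THP and 21.3 times in vehicle, and for Ctss it was 7.49 and 6.60 times. Ctsb (3.74 and 4.92) and Ctsz (3.98 and 5.33) were more even. Median Ctsz per cell was 714 CPM in THP and 549 in vehicle, median Ctsl 2181 and 1851, median Ctsc 472 and 348, and median Ctss 506 and 600. The middle 50% of cells overlapped between the libraries for each of these genes.

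**Figure D4:**
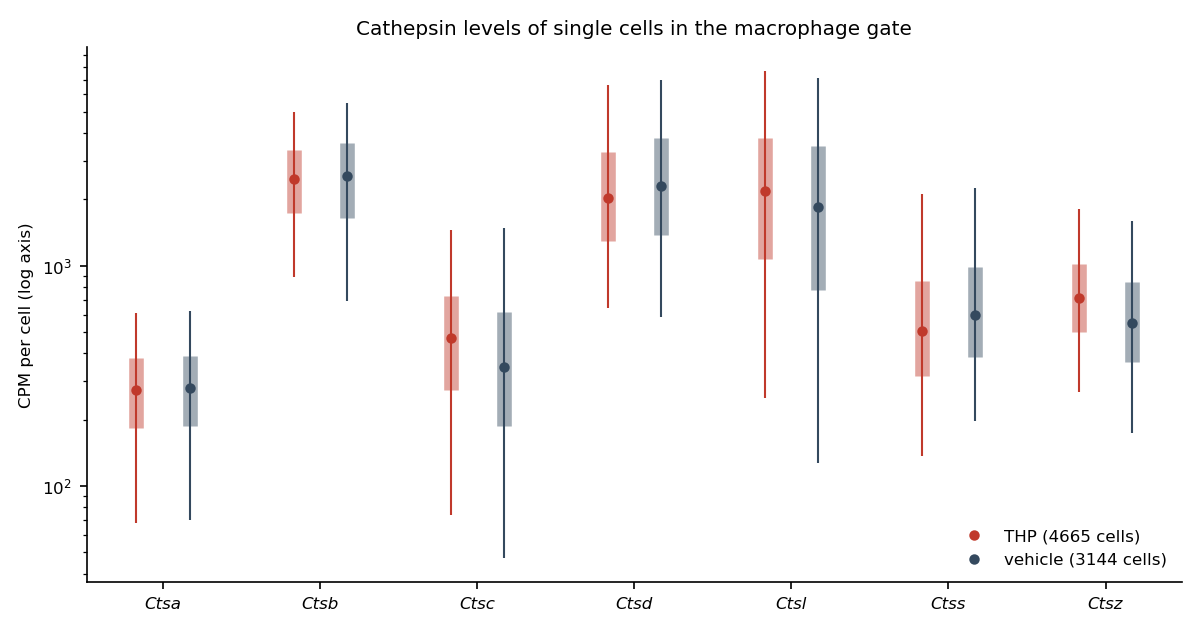
Level per cell (CPM, log axis) of 7 cathepsins in the macrophage gate of each library, with points at the median, boxes from the 25th to the 75th percentile and lines from the 5th to the 95th. The boxes of THP and vehicle overlap for each gene, and Ctsl has the longest lines.

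Within macrophages thinned to 5000 UMIs, Ctsb and Ctsd went together most closely, with a Spearman's rho of 0.60 over 4601 THP cells and 0.70 over 3113 vehicle cells. Ctsd and Ctss had 0.47 and 0.45. Ctsc and Ctsl ran opposite, at -0.26 and -0.33. These describe cells that share a library and a common count of UMIs.

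Of 14 other cathepsin genes, 3 reached 10 CPM over all kept cells. Ctsg, the granule protease cathepsin G, was at 365 CPM in THP and 595 in vehicle over all kept cells, but at 3257 and 3265 in progenitors and 7.54 and 11.2 in macrophages. Ctse, an aspartic protease, was at 29.2 and 50.3 CPM and highest in neutrophils (120 and 158) and progenitors (119 and 146). Ctso, another cysteine protease, was at 20.1 CPM in THP and 22.3 in vehicle macrophages. Over all kept cells none of the 3 passed 2-fold, where 3.88% of genes did. At 1.5-fold 2 of the 3, Ctsg and Ctse, were lower in THP, where 17.3% of genes were.

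Of 18 inhibitor genes, 8 reached 10 CPM over all kept cells and 0 passed 2-fold, where 3.88% of genes did. Cstb, the stefin B gene, was at 1127 CPM in THP and 746 in vehicle (ratio 1.51), and at 1366 and 1040 in macrophages (1.31). Cst3, the secreted cystatin C, was at 1498 and 1345, and Serpinb6a at 245 and 237. Serpinb8 was at 70.9 and 65.8. Serpinb1a, an inhibitor of neutrophil proteases, was at 101 and 185, and Cst7, which inhibits Ctsc, was at 45.1 and 62.3. In the neutrophil gate, however, Cst7 was at 51.0 CPM in THP and 26.7 in vehicle. The stefin A genes there moved the same way: BC100530 was at 610 and 293 CPM, Stfa2l1 at 393 and 219 and Stfa3 at 141 and 70.5, as was Stfa2 (86.3 and 51.4), which was named after its values were seen. With these 5, 5 of 10 inhibitors passed 1.5-fold higher in neutrophils, where 3.80% of genes did, and BC100530 passed 2-fold (1.71% of genes). Summed neutrophil markers in that gate were at 62135 and 63173 CPM. Those markers also defined the gate, and their sum does not show whether single markers differed. Stefin A genes are near-identical copies, so reads may be split between them.

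Of the 14 genes for processing, partners and sorting, all reached 10 CPM and 1 was lower by 2-fold in THP, where 2.97% of genes were: Sort1, which encodes the sorting receptor sortilin, at 14.3 and 30.9 CPM, a gene named after its values were seen. Under TMM scaling it did not pass (log2 difference -0.77). Psap, the prosaposin gene, was at 1002 and 1104, and M6pr, a mannose 6-phosphate receptor, at 160 and 159. Lgmn, the legumain that processes several cathepsins, was at 231 and 180 CPM over all kept cells but at 337 and 334 in macrophages. Tpp1 (73.2 and 72.2), Ppt1 (63.4 and 68.4) and Neu1 (50.2 and 50.6) differed little. Among regulators of lysosome biogenesis 9 of 10 were tested over all kept cells and 0 passed 2-fold, where 3.88% of genes did. Lamp1 was at 726 and 819 CPM, Lamtor1 at 265 and 254, Lamp2 at 187 and 232, Rragc at 73.6 and 88.1, Tfe3 at 56.2 and 51.1 and Mitf at 39.2 and 37.1.

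For the MHC class II chaperones, 3 of 5 genes were tested and 0 passed 2-fold over all kept cells, where 3.88% of genes did. In macrophages 2 of 3 passed 1.5-fold lower, where 15.6% of genes did. Cd74, the invariant chain that Ctss and Ctsl cut, was at 487 CPM in THP and 827 in vehicle macrophages, H2-DMa at 31.7 and 51.2, and H2-DMb1, which did not pass, at 37.3 and 56.1. Under TMM scaling neither Cd74 (log2 difference -0.53) nor H2-DMa (-0.45) passed.

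Likeness between genes was measured as Pearson's r of log2(CPM + 1) over 10 sums, 5 gates in each of 2 libraries, among 8995 genes. For Ctsl the nearest were Hgsnat (0.99), Hmox1 and Adam9, for Ctss Dpysl2 (1.00), Tubb2a and Myo1c, and for Ctsb Slc27a1 (1.00), Sash1 and Slc12a7. Ctsd lay nearest to B3galnt1 (0.99), Atp6ap1 and Sdcbp, and Ctsa to Cyb5r3 (1.00), Rnh1 and Pgrmc1. Ctsc lay nearest to Arhgef10l (0.98), Lgals1 and Cdkn1a, Ctsz to Pcbd2 (0.99), Sar1a and Psme2, and Ctsh to Spaca9 (0.97), Lsp1 and Crlf2. The 10 sums share libraries and cell types, so these values are descriptions.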

How the data were processed

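The deposited values are raw UMI counts per gene and barcode, from software version 3.1.0 in matrix format 2, per the file headers. Cell Ranger, STAR, bcl2fastq and the mm10 build are named in the submitters' processing notes, but an annotation release was not given in the sources used here. Beside the counts, the deposit lists gene names and barcodes. Barcodes with at least 500 genes, at least 1000 UMIs and at most 10% mitochondrial UMIs were kept, which left out 1070 THP and 606 vehicle barcodes. No doublet caller was run and doublets remain. Median depth was 16113 UMIs per THP cell and 17223 per vehicle cell.

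Counts were summed per library and gate and divided by the total. A gene was tested with at least 10 CPM in a library and called at 2-fold on log2(CPM + 1), with a pseudocount of 1. Intervals are exact 95% Poisson (levels), Clopper-Pearson (shares) and conditional binomial (ratios). No p-value was computed. Alternatives used TMM and RLE factors of edgeR 4.0.16 in R 4.3.3, a 1.5-fold limit, no low filter, a length correction, equal weight per cell, no cells in the top 5% by UMIs, other cell filters, the same mix of gates, other gate rules and Leiden clusters (scanpy 1.11.5, igraph 0.11.9). Sums and statistics used numpy 2.4.6, pandas 2.3.3 and scipy 1.17.1, and were tested on simulated data. Coordinates are 1-based, from GENCODE M21 (GRCm38).

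All 9 members are named. From each list, up to 6 members at 10 CPM or more with the largest level are named, and for each member the 3 genes most like it across gates. Members, lists and markers were chosen with earlier results of these data known. The lists held 14 other cathepsins, 20 inhibitors (18 analysed), 15 processing, partner and sorting genes (14 analysed), 10 lysosome biogenesis regulators and 5 MHC class II chaperones.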

Additional observations from a re-analysis of the deposited data

Results flagged for a closer look

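Ctsb was lower in THP than in vehicle in the macrophage gate (ratio 0.972) and higher in the monocyte gate (1.11). Ctsd went the same way, with ratios of 0.915 and 1.08. The effects were opposite in the 2 gates on the CPM scale only: under TMM scaling the log2 differences were 0.19 and 0.32 for Ctsb and 0.10 and 0.28 for Ctsd, and under RLE scaling all 4 were positive too. With 1 library per group the difference between them was not tested.

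In the barcodes that the cell filter left out, the 9 cathepsins summed to 8678 CPM in THP and 6416 CPM in vehicle, above the limit that a count of 0 allows in both.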

How the results depend on the processing

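No paired analysis was possible because there was 1 library per group, and for the same reason no replicate could be left out. The count of members past 2-fold was 0 over all kept cells and 0 in the macrophage gate under each alternative run. Ctsa, Ctsb, Ctsc, Ctsh, Ctsl and Ctsz kept their direction over all kept cells under 10 of 10 alternatives. Ctsd turned under the length correction (log2 difference -0.01) and the same mix of gates (-0.06), Ctss under both (-0.26 and -0.20), and Ctsk under the length correction (-0.10) and a stricter cell filter. In the macrophage gate Ctsc, Ctsl and Ctsz kept theirs under 10 of 10, with lowest values of 0.24, 0.10 and 0.01. Ctsa, Ctsb, Ctsd, Ctsh and Ctss turned under TMM and RLE scaling, Ctsa and Ctsb also under the length correction, Ctsk under 1 marker more and in Leiden clusters made without the cathepsins, and Ctsb and Ctsk when macrophages meeting other gates were included, an alternative chosen after seeing the data. TMM scaling moved the median of all genes by 0.29 over all kept cells and 0.23 in the macrophage gate, and the genes called at 2-fold over all kept cells from 73 higher and 238 lower to 138 and 69, and in macrophages from 78 and 179 to 116 and 69. The cause was not tested. The 1.5-fold limit combined with TMM or RLE scaling was also chosen after seeing the data, and moved the members past it from 0 to Ctsc, Ctsl and Ctsz over all kept cells. Of the 9 members, 6 were highest in the macrophage gate of the 5 gates compared in each library, 7 in vehicle with 1 marker fewer. They include Ctsk, which was higher in the stromal gate (102 and 82.6 CPM). Shares of cells with a UMI depend on depth: Ctsh was found in 5.57% of THP macrophages thinned to 2000 UMIs and in 36.3% unthinned.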
